A study of Mus musculus with 9 samples.

Results

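The 5 genes described here, Ankrd1, Ankrd2, Csrp3, Xirp1 and Xirp2, encode proteins of the sarcomere and its anchorage that are known to respond to mechanical load. They were chosen by their known response to load, with their differences between the genotypes on these arrays already in view, so what follows describes them and does not test the choice. They were matched by symbol to the annotation of the array, 5 of 19505 named genes, and each had 1 probe set. Whole tibialis anterior muscle of C57/BL6 mice aged 2 months was measured on 3 Clariom S arrays for each of 3 genotypes: MCU knockout (MCU-/-/MCUb+/+), MCUb knockout (MCU+/+/MCUb-/-) and control (MCU+/+/MCUb+/+). MCU forms the pore of the channel that carries calcium into mitochondria, and MCUb is its paralogue in the same complex. Which cells lost the gene, any Cre or promoter used, the sex of the mice, and their loading, exercise or injury are not given in the sources used here.

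The sarcomere passes force along titin and actin to the Z-disc, and the Z-disc also serves as a sensor of strain. Ankrd1 and Ankrd2 are muscle ankyrin repeat proteins that bind the N2A region of titin and can also act in the nucleus. Csrp3, the muscle LIM protein, sits at the Z-disc and in the nucleus, and mice without it develop dilated cardiomyopathy. Xirp1 (Xin) and Xirp2 bind and stabilise actin filaments through Xin repeats and gather at myotendinous junctions and at sites of fibre damage. Transcripts of Ankrd1, Ankrd2, Csrp3 and Xirp1 are known to increase in skeletal muscle after stretch or eccentric contraction, and Ankrd2 and Csrp3 are richer in slow than in fast fibres.

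All 5 genes were above background on all 9 arrays, background being the 95th percentile of 23 background probe sets of the same array. Between 45.3% and 45.9% of the 22206 probe sets tested lay above it on an array. Mcu stood at 6.80, 6.98 and 7.06 (log2) on the MCU knockout arrays, against 10.38, 10.96 and 10.46 on the control arrays (adjusted p = 3.47e-05 in limma), as the labels have it. Mcub was not analysed here. The following features of the arrays touch the results below. Control replicate 3 stood apart, with an array weight of 0.436 in limma against 0.671 to 1.31 for the other arrays. Uty and Kdm5d, which are Y-linked, averaged 7.56 on MCU knockout replicate 2, 7.24 on MCU knockout replicate 3 and 7.80 on MCUb knockout replicate 1, and between 3.01 and 3.89 on the remaining 6, which include every control array. Markers of fast muscle fibres were all present, with 15 of 15 above background, while of 9 heart muscle markers 3 were above background on any array, and Myh6, Nppa and Nkx2-5 on none.

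Xirp1 (probe set TC0900003251.mm.2, chromosome 9) had the smallest p-value of the members in both comparisons with control. Its log2 level was 9.96, 9.91 and 9.76 on the MCU knockout arrays, against 11.66, 11.77 and 10.50 on the control arrays. Every MCU knockout array lay below every control array, and the MCU knockout arrays lay close together. The mean was 9.88 ± 0.11 in MCU knockout muscle and 11.31 ± 0.71 in control muscle (SD, n = 3 each), which is 2.70-fold lower (log2 change -1.43, SE 0.31). In limma this did not pass the threshold of 0.05 after Benjamini-Hochberg adjustment over all 22206 probe sets (unadjusted p = 0.000815, adjusted p = 0.193).

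In MCUb knockout muscle the Xirp1 level was 9.10, 9.40 and 9.78, below the same control arrays without overlap. The mean was 9.43 ± 0.34 in MCUb knockout muscle and 11.31 ± 0.71 in control muscle, which is 3.69-fold lower (log2 change -1.88, SE 0.31, unadjusted p = 8.82e-05, adjusted p = 0.163 in limma). By unadjusted p Xirp1 ranked 12 among the 22206 probe sets in this comparison and 94 in the MCU knockout comparison. Of the 3 groups the controls had the largest SD, with replicate 3, at 10.50, below the other controls. Without control replicate 3 the change was -1.84 (SE 0.22, adjusted p = 0.0140) in MCU knockout muscle and -2.29 (SE 0.22, adjusted p = 0.00936) in MCUb knockout muscle, both past the threshold. Over 18 other settings the adjusted p lay between 0.0140 and 0.983 for MCU knockout and between 0.00936 and 0.915 for MCUb knockout. A two-sided exact permutation test returned p = 0.1 for either comparison, the smallest that 3 arrays against 3 can give. Both comparisons share the control arrays, so they are not independent of each other.

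The knockouts were not told apart by Xirp1. The log2 difference, MCU knockout minus MCUb knockout, was 0.45 (SE 0.31, 95% interval -0.24 to 1.14, adjusted p = 0.9998 in limma), and the highest MCUb knockout array (9.78) lay above the lowest MCU knockout array (9.76). Xirp1 has no promoter sequence shown here.

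**Figure D1:**
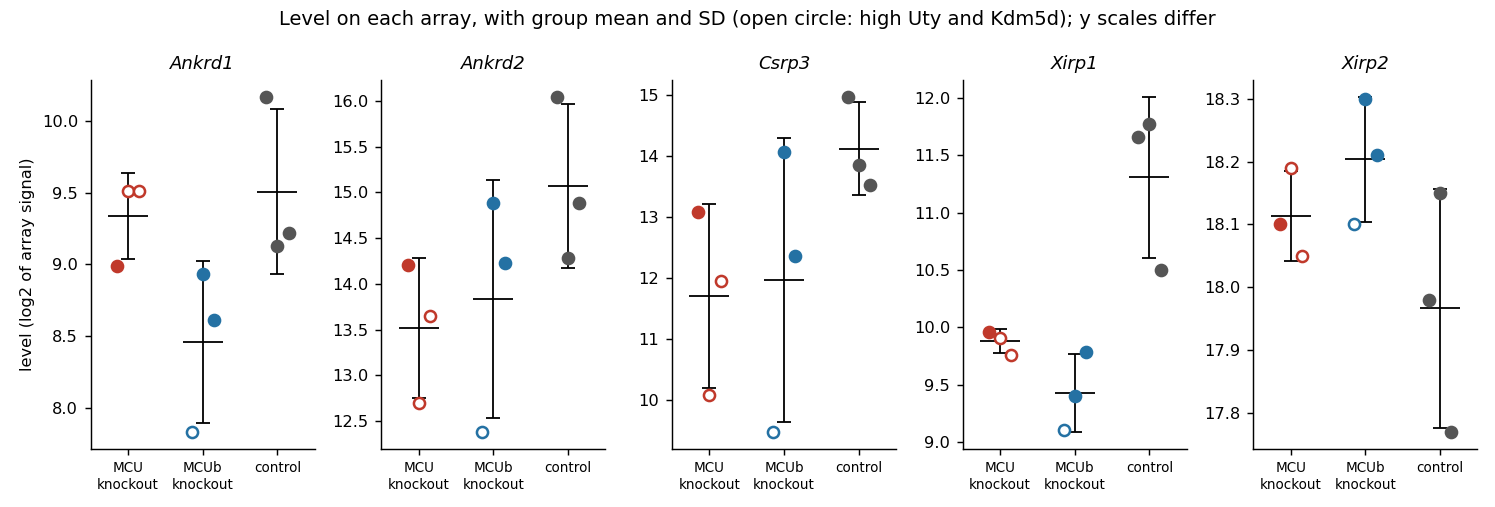
Log2 level of each gene (y axis, log2 of array signal, with a scale of its own in each panel) on the 3 arrays of MCU knockout, MCUb knockout and control muscle. Circles are arrays, open where Uty and Kdm5d were high; the horizontal bar is the group mean and the whiskers the SD (n = 3). For Xirp1 all 6 knockout arrays, at 9.10 to 9.96, sit below the 3 control arrays, at 10.50 to 11.77. For Ankrd2 and Csrp3 the open circles are the 3 lowest points.

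Xirp2 (TC0200000966.mm.2, chromosome 2), the paralogue of Xirp1, varied little. It stood at 18.10, 18.19 and 18.05 on the MCU knockout arrays, at 18.10, 18.30 and 18.21 on the MCUb knockout arrays, and at 17.98, 18.15 and 17.77 on the control arrays. The 3 genotypes overlapped, and control replicate 3 was the lowest array. The log2 change was 0.14 (SE 0.17, 95% interval -0.23 to 0.52, adjusted p = 0.800 in limma) in MCU knockout muscle and 0.24 (SE 0.17, 95% interval -0.14 to 0.62, adjusted p = 0.725) in MCUb knockout muscle. These intervals leave out the sizes measured for Xirp1. The signal is near the top of the scale of these arrays, whose highest value was 19.9, and whether it was near saturation was not tested. Its SD over the 9 arrays, 0.15, was larger than that of 7.23% of the 19505 named genes.

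The promoter of Xirp2 is shown because transcription of this gene is known to depend on MEF2 factors, which answer to calcium signals. The window is chr2:67445752-67446051 (GRCm38.p6, plus strand, RefSeq), from 250 bases before the start of the gene to 50 after it, and capitals mark matches to a MEF2 site or to an E-box (CANNTG, the site of MyoD-type factors), on either strand.
Xirp2: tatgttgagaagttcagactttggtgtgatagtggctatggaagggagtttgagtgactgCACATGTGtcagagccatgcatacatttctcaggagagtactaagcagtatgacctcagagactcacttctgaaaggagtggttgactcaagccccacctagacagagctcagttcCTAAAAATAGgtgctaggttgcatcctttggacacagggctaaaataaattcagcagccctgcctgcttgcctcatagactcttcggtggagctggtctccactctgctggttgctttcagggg
It holds 1 MEF2 site, with its first base at -74, where 3.19% of 32851 such windows in the table hold one, and 2 E-boxes that overlap each other. Among the transcription factors themselves, Mef2a had a log2 change of -0.05 in MCU knockout muscle and of -0.05 in MCUb knockout muscle (adjusted p = 0.951 and 0.960 in limma).

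Csrp3 (TC0700003074.mm.2, chromosome 7) had the widest range of the members. Its log2 level was 13.08, 10.08 and 11.95 on the MCU knockout arrays, against 14.98, 13.86 and 13.52 on the control arrays. The MCU knockout arrays lay below all controls and spread widely among themselves. The mean was 11.70 ± 1.52 in MCU knockout muscle and 14.12 ± 0.77 in control muscle, which is 5.34-fold lower (log2 change -2.42, SE 1.01, unadjusted p = 0.0357, adjusted p = 0.471 in limma). In MCUb knockout muscle the level was 9.47, 14.07 and 12.36, so that replicate 2 lay within the control range and replicate 1 far below it. The mean there was 11.97 ± 2.32 against 14.12 ± 0.77 in control muscle, a log2 change of -2.15 (SE 1.01, 95% interval -4.38 to 0.07, adjusted p = 0.619). The SD of Csrp3 over the 9 arrays, 1.84, was larger than that of 99.9% of the named genes.

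Ankrd2 (TC1900000606.mm.2, chromosome 19) ordered the arrays in almost the same way. It stood at 14.21, 12.70 and 13.65 on the MCU knockout arrays, against 16.05, 14.28 and 14.88 on the control arrays. The groups did not overlap, by a gap of 0.07. The mean was 13.52 ± 0.76 in MCU knockout muscle and 15.07 ± 0.90 in control muscle, which is 2.92-fold lower (log2 change -1.55, SE 0.63, unadjusted p = 0.0313, adjusted p = 0.455 in limma). In MCUb knockout muscle its level was 12.38, 14.89 and 14.23, overlapping with the controls, and the log2 change was -1.24 (SE 0.63, 95% interval -2.62 to 0.14, adjusted p = 0.625). MCU knockout and MCUb knockout muscle differed by -0.31 (SE 0.63) in Ankrd2 and by -0.27 (SE 1.01) in Csrp3, neither past the threshold (adjusted p = 0.9998 for both in limma).

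Over the 9 arrays Pearson's r between Ankrd2 and Csrp3 was 0.96 and Spearman's rho 0.97. After the mean of each genotype was taken out Pearson's r was 0.94. For the levels with the genotype means left in, it was also 0.94 over 7 arrays, without control replicate 1 and MCUb knockout replicate 1. Those were the arrays farthest from the median of Ankrd2. This is a description of 9 arrays that share their processing and 3 genotypes, with no test. The other pairs of members were less alike. Csrp3 and Xirp1 had an r of 0.65 (rho 0.57), which was 0.35 after the genotype means were taken out. Xirp1 and Xirp2 had an r of -0.35 over the arrays and 0.82 after the genotype means were taken out, within the small range of Xirp2. Control replicate 3 was the lowest control for both genes. Without control replicates 1 and 2, the arrays farthest from the median of Xirp1, the r over the arrays was -0.67 (7 arrays).

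**Figure D2:**
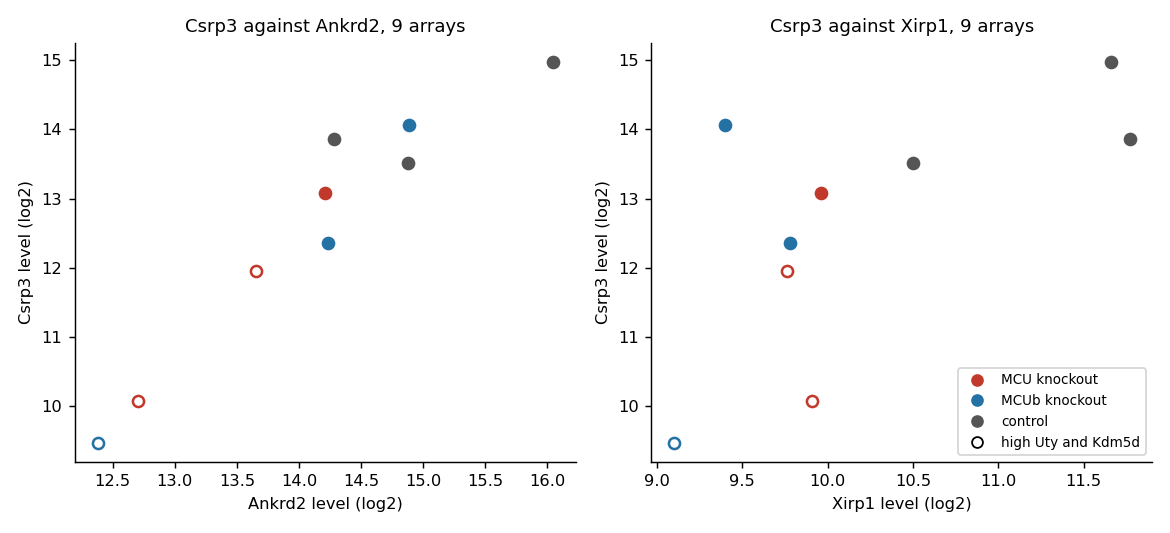
Log2 level of Csrp3 (y axis) against that of Ankrd2 (left) and of Xirp1 (right), 1 circle per array, coloured by genotype and open where Uty and Kdm5d were high. On the left the 9 arrays follow 1 line (r = 0.96), with the 3 open circles at its lower end. On the right the knockout arrays lie at Xirp1 levels of 9.96 or less over the range of Csrp3 from 9.47 to 14.07.

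Within each knockout group Csrp3 and Ankrd2 were lower on the arrays with a high Y-linked level. All control arrays had a low level, so a split of all arrays by this level is partly a split by genotype. Arrays alike in this level also differed. Csrp3 was at 10.08 and 11.95 on MCU knockout replicates 2 and 3, both high, and Ankrd2 ran from 14.28 to 16.05 on the controls. Csrp3 was between 9.47 and 11.95 on the 3 arrays with high Uty and Kdm5d, and between 12.36 and 14.98 on the other 6. Ankrd2 was between 12.38 and 13.65 on those 3 arrays, and between 14.21 and 16.05 on the other 6. Neither gene overlapped between these sets of arrays, and 1.85% of all probe sets (410) were lower on the 3 arrays in the same way. Over the 6 arrays with a low Y-linked level, with 1 MCU knockout and 2 MCUb knockout arrays among them, the log2 change of Csrp3 was -1.04 (SE 0.72) in MCU knockout muscle and -0.91 (SE 0.57) in MCUb knockout muscle, and that of Ankrd2 was -0.86 (SE 0.62) and -0.51 (SE 0.49). All 4 values are smaller in size than those over all 9 arrays. The 3 arrays left out are all knockout arrays and the lowest for both genes, so leaving them out had to make these values smaller. The smaller sizes therefore tell nothing further. Here and below, the MCU knockout value on these 6 arrays is that of 1 array, replicate 1, whose SE assumes that it varies like the other groups, so its arm has no replicate check.

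Xirp1 overlapped between these sets of arrays. It was between 9.10 and 9.91 on the 3 arrays with high Uty and Kdm5d, and between 9.40 and 11.77 on the other 6. Over the 6 arrays with a low level its change was -1.34 (SE 0.50) in MCU knockout muscle and -1.72 (SE 0.40) in MCUb knockout muscle, against -1.43 and -1.88 over all 9 arrays, and neither passed the threshold (adjusted p = 0.983 and 0.915 in limma). In a fit over all arrays with the Uty and Kdm5d level as covariate, Csrp3 was at -0.49 (SE 0.63) in MCU knockout muscle and -1.20 (SE 0.55) in MCUb knockout muscle, and Xirp1 at -1.19 (SE 0.37) and -1.77 (SE 0.33). Sex itself is not given in the sources used here.

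The promoters of Ankrd2 and Csrp3 are set side by side because their levels went together. The windows are chr19:42035777-42036076 on the plus strand for Ankrd2 and, on the minus strand, chr7:48848002-48848301 and chr7:48843622-48843921 for the upstream and downstream starts of Csrp3 (GRCm38.p6, RefSeq), and capitals mark E-boxes.
Ankrd2: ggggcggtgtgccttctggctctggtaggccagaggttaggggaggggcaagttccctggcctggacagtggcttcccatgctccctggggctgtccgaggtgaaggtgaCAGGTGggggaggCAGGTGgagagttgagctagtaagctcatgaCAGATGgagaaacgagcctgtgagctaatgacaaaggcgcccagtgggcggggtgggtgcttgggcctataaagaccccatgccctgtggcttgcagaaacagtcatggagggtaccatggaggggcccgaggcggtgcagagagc
Csrp3, upstream start: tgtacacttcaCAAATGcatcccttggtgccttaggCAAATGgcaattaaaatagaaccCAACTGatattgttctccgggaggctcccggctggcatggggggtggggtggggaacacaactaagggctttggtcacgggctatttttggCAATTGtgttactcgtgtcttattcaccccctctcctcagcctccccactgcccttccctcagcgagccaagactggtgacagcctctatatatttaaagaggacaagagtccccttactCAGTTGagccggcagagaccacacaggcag
Csrp3, downstream start: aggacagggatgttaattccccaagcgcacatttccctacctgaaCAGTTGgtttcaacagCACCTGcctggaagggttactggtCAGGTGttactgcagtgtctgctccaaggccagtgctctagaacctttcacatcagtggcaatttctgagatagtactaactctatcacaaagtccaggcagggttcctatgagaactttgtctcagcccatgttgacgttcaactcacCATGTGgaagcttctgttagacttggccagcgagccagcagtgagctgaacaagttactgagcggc
Ankrd2 holds 3 E-boxes, the upstream window of Csrp3 5 and the downstream window 4, where 39.6% of all windows hold 2 or more. No match to the MCAT element (CATTCC), the CArG box or the MEF2 site was found in these 3 windows. That says only that these letters are absent there, and which start of Csrp3 was in use cannot be read from 1 probe set.

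Ankrd1 (TC1900001437.mm.2, chromosome 19) was lowest in MCUb knockout muscle, though no comparison of it passed the threshold. It stood at 7.83, 8.93 and 8.61 on the MCUb knockout arrays, against 10.17, 9.13 and 9.22 on the control arrays. The MCUb knockout arrays lay below all controls, by a gap of 0.20. The mean was 8.46 ± 0.56 in MCUb knockout muscle and 9.51 ± 0.57 in control muscle, which is 2.07-fold lower (log2 change -1.05, SE 0.34, unadjusted p = 0.00957, adjusted p = 0.534 in limma). In MCU knockout muscle Ankrd1 was at 8.99, 9.51 and 9.51, overlapping with the controls, though replicate 1 lay below all of them. The log2 change was -0.17 (SE 0.34, 95% interval -0.91 to 0.57, adjusted p = 0.886). That value was 0.16 without control replicate 1, the control array with the highest level. Tested directly, MCU knockout minus MCUb knockout was 0.88 (SE 0.34, unadjusted p = 0.0240, adjusted p = 0.749), with groups that did not overlap by a gap of 0.06. With the Uty and Kdm5d level as covariate this difference was 0.96 (SE 0.36), and over the 6 arrays with a low level, where 1 MCU knockout array is left, it was 0.22 (SE 0.47).

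Ankrd1 is a widely used target gene of YAP and TAZ, coactivators that answer to tension and act through TEAD factors at MCAT elements. Its promoter is shown for that reason: chr19:36119795-36120094 (GRCm38.p6, minus strand, RefSeq), with MCAT elements (CATTCC, here read on the other strand) and an E-box in capitals.
Ankrd1: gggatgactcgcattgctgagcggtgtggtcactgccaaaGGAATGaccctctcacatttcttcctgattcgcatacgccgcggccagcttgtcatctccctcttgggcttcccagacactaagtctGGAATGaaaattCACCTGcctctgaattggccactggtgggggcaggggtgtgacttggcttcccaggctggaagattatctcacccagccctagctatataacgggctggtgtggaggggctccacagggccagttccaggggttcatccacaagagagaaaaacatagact
It holds 2 MCAT elements, with their first bases at -210 and -123, where 14.7% of all windows hold at least 1 and 1.36% hold 2 or more. It also holds 1 E-box, and no CArG box or MEF2 site was found. Of 26 measured genes of the YAP, TAZ and TEAD list, 0 passed the threshold in any of the 3 comparisons in limma. Yap1 itself lay at background throughout, as did the targets Ccn2 and Amotl2. Ccn1, a further target, was at -0.23 (adjusted p = 0.798) in MCU knockout muscle and 0.05 (0.969) in MCUb knockout muscle, and Tead1 at 0.06 (0.939) and 0.25 (0.730). Wwtr1, which encodes TAZ, was at -0.07 (0.931) and -0.50 (0.570), with all MCUb knockout arrays below all controls. In MCUb knockout muscle 4 of the 26 were lower without overlap and 1 higher, where 7.02% of all probe sets were lower. The smallest p there belonged to Crim1 (0.72, adjusted p = 0.534), Tgfb2 (-0.68, 0.534) and Vgll2 (-0.80, 0.535). Vgll3 was at 0.70 (0.348) and Lats1 at -0.57 (0.361) in MCU knockout muscle.

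Counted together, 0 of the 5 members passed the threshold in MCU knockout muscle, where 0.14% of all probe sets did (31 of 22206). With groups that did not overlap, 3 of 5 were lower (Ankrd2, Csrp3, Xirp1), against 7.33% of all probe sets. In MCUb knockout muscle 0 of 5 passed, against 0.0225% of all probe sets (5), and 2 of 5 were lower without overlap (Ankrd1, Xirp1), against 7.02%. Between the knockouts 0 of 5 passed, against 0.158% (35), and Ankrd1 alone was higher in MCU knockout muscle without overlap, against 6.59%. At an unadjusted p under 0.05 there were 3, 2 and 1 members in the comparisons in that order, against 10.1%, 8.11% and 5.7% of all probe sets. The median log2 change of the 5 members was -1.43 in MCU knockout muscle, -1.24 in MCUb knockout muscle and -0.09 between the knockouts, where the medians over all probe sets were -0.02, -0.03 and 0.01. The genes were chosen with earlier results known, so these counts carry no test.

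**Figure D3:**
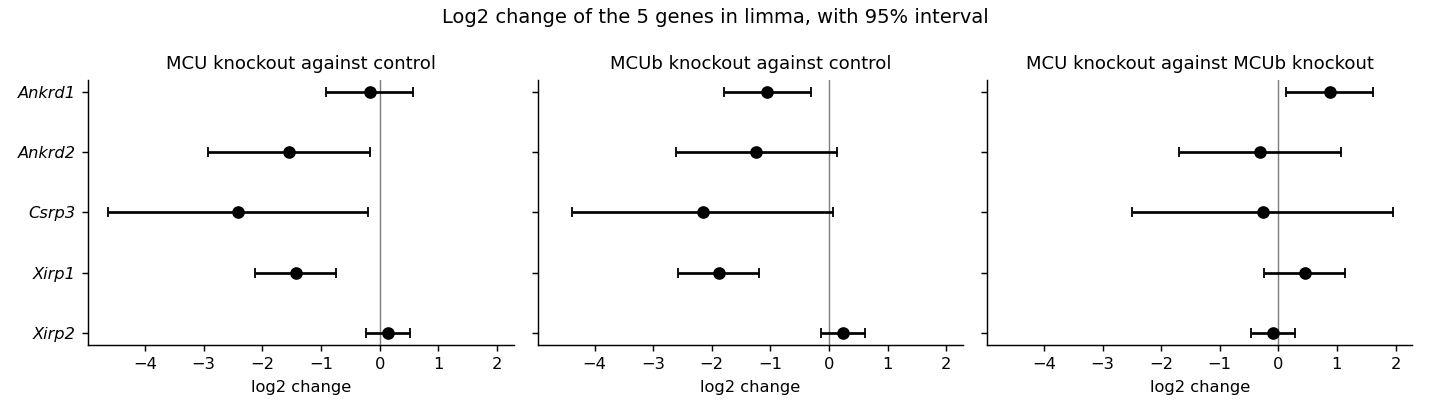
Log2 change (x axis) of the 5 genes in MCU knockout against control, MCUb knockout against control and MCU knockout against MCUb knockout muscle, from limma over 9 arrays; points are estimates and bars 95% intervals before adjustment for the number of probe sets. Xirp1 is at -1.43 and -1.88 against control with narrow bars, Csrp3 at -2.42 and -2.15 with the widest bars, and Xirp2 close to 0 in each panel.

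Further genes of the same families were also measured. Ankrd23, the further muscle ankyrin repeat protein of the titin N2A region, was between 18.29 and 18.47 on the MCU knockout arrays, between 18.24 and 18.37 on the MCUb knockout arrays, and between 18.20 and 18.38 on the control arrays. Its log2 change was 0.10 (adjusted p = 0.855) and 0.02 (0.980) in limma. Csrp1, a LIM protein related to Csrp3, was at -0.13 (0.909) in MCU knockout muscle and -0.47 (0.688) in MCUb knockout muscle, and Csrp2 at -0.23 (0.769) and -0.03 (0.982). Of the 6 genes of this list 0 passed in any comparison.

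Among 35 measured partners of titin and the Z-disc, 0 passed the threshold in any comparison, and their median log2 change was 0.07 in MCU knockout and -0.01 in MCUb knockout muscle. Flnc, filamin C, a partner of Xirp1 at the Z-disc and at damaged sarcomeres, was at 9.90, 9.27 and 9.73 on the MCU knockout arrays and at 9.70, 10.03 and 9.60 on the MCUb knockout arrays, against 10.57, 10.40 and 10.16 on the control arrays. All 6 knockout arrays were below the 3 controls, with a log2 change of -0.74 (adjusted p = 0.341) and -0.60 (adjusted p = 0.558) in limma. Myom2, myomesin of the M-band in fast fibres, was at 0.86 (0.383) and 0.88 (0.534), and Fhl3, a LIM-only protein, at 0.88 (0.393) and 0.62 (0.620). The titin gene Ttn was at -0.14 (0.822) and 0.14 (0.849), and Capn3, the protease held by the N2A region, at 0.17 (0.815) and -0.21 (0.808). Synpo2l, a partner of filamin and actinin, was lowest in MCU knockout muscle, at -0.52 against MCUb knockout muscle (adjusted p = 0.826).

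Of 14 measured chaperones of the sarcomere, 0 passed the threshold in any comparison, and their medians were -0.02 and 0.01 against control. Hspb7, a small heat shock protein that binds filamin C, was at 12.75, 12.24 and 12.43 on the MCU knockout arrays and at 11.69, 13.71 and 13.61 on the MCUb knockout arrays, against 14.24, 13.22 and 13.76 on the control arrays. It was lower on all MCU knockout arrays than on any control (log2 change -1.27, adjusted p = 0.413 in limma), while in MCUb knockout muscle replicate 1 alone lay below the controls. Bag3, the co-chaperone that clears damaged filamin, was at -0.27 (0.666) and 0.06 (0.948). Of 22 measured genes of the SRF, MRTF and MEF2 list 0 passed. Mrtfb, a coactivator of SRF released by actin assembly, was at -0.82 (0.361) in MCU knockout and -0.59 (0.605) in MCUb knockout muscle, and Mef2d at -0.48 (0.474) and -0.12 (0.896).

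In the list of genes that answer to load and injury, 24 were measured. Tnfrsf12a, the receptor for the cytokine TWEAK, was the single gene past the threshold, lower in MCUb knockout than in control muscle (log2 change -3.01, adjusted p = 0.0152 in limma) and higher in MCU knockout than in MCUb knockout muscle (2.05, adjusted p = 0.0489). The call against control was lost without control replicate 1, MCUb knockout replicate 1 or MCUb knockout replicate 3, where 0 probe sets passed. The call between the knockouts lies close to the threshold. In MCU knockout against control muscle 0 passed, and Tnfrsf12a was at -0.96 (0.393). The list had 13 genes below 0 in MCU knockout muscle and 17 in MCUb knockout muscle. Its medians were -0.02 and -0.13, where those over all probe sets were -0.02 and -0.03. Without overlap 7 of the 24 were lower and 1 higher in MCU knockout muscle, where 7.33% of all probe sets were lower. In MCUb knockout muscle 6 were lower and 0 higher, against 7.02% lower. The list was chosen with earlier results known, so these counts carry no test. Klhl40, which stabilises thin filaments, was at -0.54 (0.393) and -0.66 (0.492), Cdkn1a, a brake on the cell cycle, at -1.04 (0.603) and -1.85 (0.535), and Enah, an actin assembly factor, at -0.70 (0.385) and -0.41 (0.663). Mustn1, a small nuclear protein raised by loading, was at 0.16 (0.886) and -0.04 (0.984). Myh3, the embryonic myosin of regenerating fibres, lay at background on all 9 arrays.

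Fibre-type genes are given beside the members because Ankrd2 and Csrp3 are richer in slow fibres. The mean log2 level of 15 slow fibre genes was 10.43, 10.41 and 9.85 on the MCU knockout arrays, 9.81, 10.56 and 10.32 on the MCUb knockout arrays, and 10.43, 10.50 and 10.47 on the control arrays. Its lowest arrays, MCUb knockout replicate 1 and MCU knockout replicate 3, were among the 3 with high Uty and Kdm5d, where Ankrd2 and Csrp3 were lowest. The remaining array of these 3, MCU knockout replicate 2, ran otherwise. Its slow fibre mean of 10.41 lay above that of MCUb knockout replicate 3 (10.32), though its Ankrd2 (12.70) and Csrp3 (10.08) were low. Of this list 14 of 15 genes were above background on some array and 0 passed in any comparison. In MCU knockout muscle 10 of the 15 were above 0, with a median log2 change of 0.11, and in MCUb knockout muscle 4 were, with a median of -0.20. On the 3 arrays where Uty and Kdm5d were high, 4 of the 15 were lower than on all others (Myl3, Casq2, Myoz2, Cd36) and 0 higher. Of all probe sets 1.85% were lower in that way. Casq2, the slow-fibre calsequestrin, reached 9.89 on those arrays and was 10.43 or more elsewhere. Others ran differently: Atp2a2, the calcium pump of slow fibres, was highest on MCU knockout replicates 2 and 3, at 11.59 and 11.16, and Tnni1, the slow troponin I, likewise at 6.67 and 6.40. Myh2, the IIa myosin, which belongs to the fast fibre list, was at most 14.27 on those 3 arrays and at least 15.47 on the others. Of the 15 fast fibre genes Myh2 was the 1 lower on those arrays without overlap, against the same 1.85%, and 4 were higher (Myl1, Tnnt3, Tnni2, Pvalb). The share of all probe sets higher in that way is not given here, so the count of 4 cannot be judged against it. In this bulk tissue, fewer fibres of a type and less RNA per fibre cannot be told apart. The part of fibre type in the levels of Ankrd2 and Csrp3 was not tested.

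Markers of other tissues in the muscle were set beside the members in the same way. Of 12 measured genes of the myotendinous junction and tendon, where Xirp proteins gather, 0 passed, with medians of -0.04 and -0.15 against control. Their mean level was 7.88 to 8.05 on the MCU knockout arrays, 7.83 to 8.0 on the MCUb knockout arrays, and 7.92 to 8.12 on the control arrays. Nrap, an actin-binding protein of these junctions, was at -0.36 (adjusted p = 0.611) and -0.39 (0.656) in limma, and Ablim1 at -0.74 (0.430) and -0.81 (0.547). Among fibroblast (9 measured), endothelial and mural (11), immune (9), satellite cell (6), adipocyte (5), Schwann cell (4) and cardiac (9) markers, 0 passed in any comparison. The mean level of the fibroblast markers ran from 9.62 to 10.93 on the MCU knockout arrays, from 9.62 to 10.54 on the MCUb knockout arrays and from 9.60 to 10.45 on the control arrays. Of the satellite cell markers only Cdh15 was above background on any array, and Pax7 on none. The part of these cells in the members' levels was not tested.

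**Figure D4:**
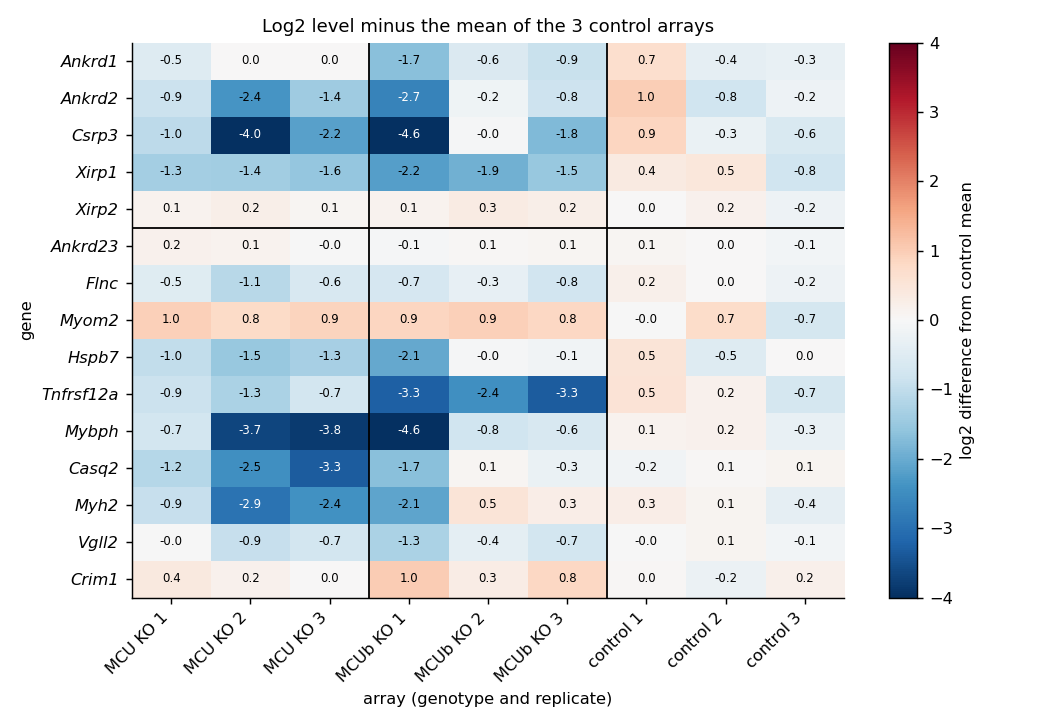
Log2 level minus the mean of the 3 control arrays (colour and printed value) for the 5 members, above the line, and for 10 related genes, on each array; columns run from MCU knockout (KO) through MCUb knockout to control. Xirp1 is negative on all 6 knockout arrays. Csrp3, Ankrd2, Mybph, Casq2 and Myh2 are darkest on MCU knockout replicates 2 and 3 and MCUb knockout replicate 1, and Tnfrsf12a on the 3 MCUb knockout arrays.

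The genes most like each member were taken by Pearson's r over the 9 arrays among 4522 named genes above background on all arrays with an SD of at least 0.3 (4523 for Xirp2, whose own SD is smaller). For Csrp3 they were Ankrd2 (0.96), Tspan12, a tetraspanin (0.96), Xpo6, the export receptor for actin (0.95), Mrc1, the mannose receptor of macrophages (0.93), and Lmcd1, a LIM protein of muscle (0.91). For Ankrd2 they were Csrp3 (0.96), Hspb7 (0.95), Mrc1 (0.91), Tspan12 (0.91) and Ank3, ankyrin G (0.91). Csrp3 and Ankrd2 named each other first and shared Mrc1 and Tspan12. All 6 of these genes that are not members were lower, without overlap, on the 3 arrays with high Uty and Kdm5d, against 1.85% of all probe sets. They were picked for likeness to Csrp3 and Ankrd2, which split in the same way, so this count is no separate support. The part of that split in the likeness was not tested. For Xirp1 they were Rara, the retinoic acid receptor alpha (0.93), Agk, a mitochondrial lipid kinase (0.93), Tars, a tRNA synthetase (0.91), Smc1a of cohesin (0.90) and Slc26a10 (0.89). For Ankrd1 they were Mid1, a ubiquitin ligase on microtubules (0.91), Churc1, Smco4, Rassf1 and Garem1 (0.85 to 0.89), and for Xirp2 Elac1, Ccny, D3Ertd751e, Qars and Fxr2 (0.95 to 0.96). These values describe 9 arrays and were not tested.

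The changes against control were recomputed under 9 other settings and with each of the 9 arrays left out. Xirp1 stayed between -1.84 and -1.19 in MCU knockout muscle and between -2.29 and -1.65 in MCUb knockout muscle. Csrp3 ran from -3.11 to -0.49 and from -3.20 to -0.91, and Ankrd2 from -1.94 to -0.52 and from -1.76 to -0.51. Without MCUb knockout replicate 1, the array with the lowest Csrp3, the MCUb knockout change was -0.91 for Csrp3 and -0.51 for Ankrd2. In MCU knockout muscle Csrp3 was at -1.60 without MCU knockout replicate 2.

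**Figure D5:**
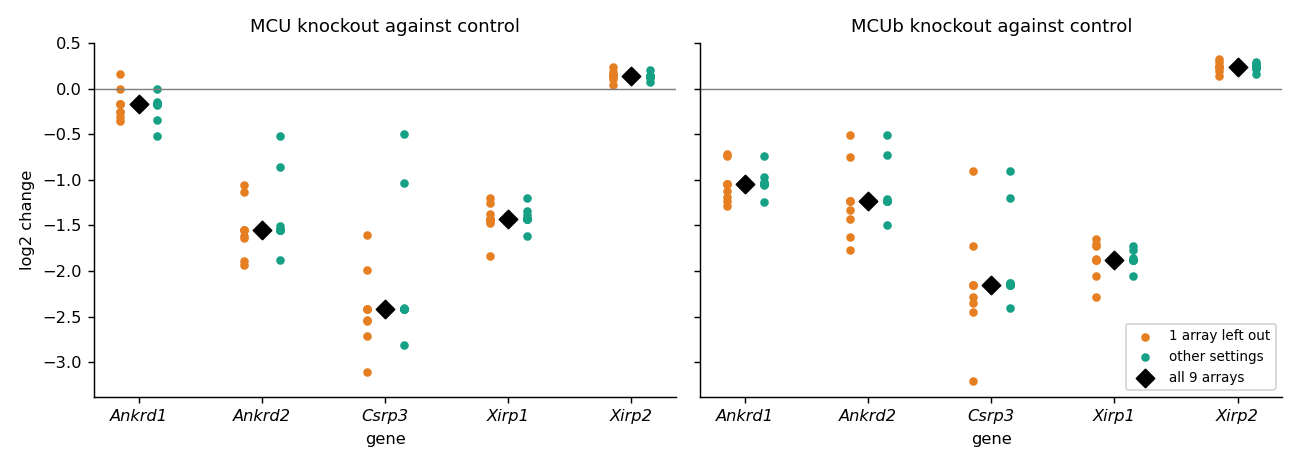
Log2 change against control (y axis) of the 5 genes in MCU knockout (left) and MCUb knockout muscle (right); the black diamond is the value over 9 arrays, orange circles leave out 1 array each and green circles are other settings of the fit. Xirp1 stays at or below -1.19 and -1.65, Csrp3 and Ankrd2 run over the widest ranges, and Ankrd1 in MCU knockout muscle crosses 0.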

How the data were processed

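Total RNA of whole, flash-frozen muscle was labelled with a 3' IVT Pico kit and hybridised to Clariom S arrays, per the labels' protocols. The authors made the deposited log2 values, 1 per probe set and array, in Expression Console (Affymetrix), per the submitters' processing notes. Its version, the summarisation and normalization and the base of the logarithm are not given in the sources used here. They were read as log2 from their range (2.33 to 19.9), and every fold rests on that reading. Of 28846 values per array, 6640 of control features were left out, and 22206 probe sets were tested as deposited. The platform annotation named 19572 of these with 1 symbol, 0 with several and 2634 with none, and all 19572 matched the RefSeq table of GRCm38.p6, used for names, chromosomes and promoters (4 of the 5 genes).

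A single fit of 3 group means over 9 arrays was made with limma 3.58.1 in R 4.3.3 (lmFit, eBayes, two-sided, residual degrees of freedom 6, prior 5.06), adjusted by Benjamini-Hochberg over all probe sets, and tested on simulated data. Whether each sample is a separate mouse is not stated in the labels, so p-values measure the spread between samples, part of which may be technical. Uty and Kdm5d differed between arrays within each knockout group, so the arrays of such a group were not all repeats of 1 mouse. For arrays alike in this level it cannot tell. These are the controls, MCU knockout replicates 2 and 3, and MCUb knockout replicates 2 and 3. The number of arrays limits the precision. Replicate numbers are shared between genotypes in the labels. Deviations from the group means of same-numbered arrays correlated at -0.12 to 0.09, so the numbers were not taken to pair the samples. The genes, the 16 lists and the tests were chosen with earlier results of these data known. Named were the 5 genes, Mcu, Ankrd23, the 3 genes of smallest p in each list and comparison with any past the threshold (not all are printed), and the 5 genes most like each member. Others, such as list genes well known for their role and those below background, were chosen after their values were seen.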

Additional observations from a re-analysis of the deposited data

How the results depend on the processing

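Of 270 recomputed changes of the 5 genes, 259 kept their direction and their side of the threshold, 3 gained the threshold, 8 turned in sign and 0 lost it, since 0 passed to begin with. All 3 that gained it were Xirp1 against control. The array weights gave it -2.06 (adjusted p = 0.0334) in MCUb knockout muscle. With 1 array left out it ran from -1.84 to -1.20 in MCU knockout and from -2.29 to -1.65 in MCUb knockout muscle, and passed without control replicate 3. Signs turned where changes were small. With the Uty and Kdm5d level as covariate, MCU knockout minus MCUb knockout was 0.21 for Ankrd2 and 0.71 for Csrp3. With 1 array left out it ran from -1.04 to 0.22 for Ankrd2 and from -1.51 to 0.79 for Csrp3, and Ankrd1 in MCU knockout against control from -0.36 to 0.16. The cause was not tested. Probe sets past the threshold numbered 31 in MCU knockout against control, 16 with the Y-linked covariate, and 20 to 98 with 1 array left out (98 without control replicate 2, 20 without MCU knockout replicate 3). In MCUb knockout against control they numbered 5, 1 with only the groups compared, and 0 to 20 with 1 array left out: 20 without control replicate 2, 3 without MCU knockout replicate 2, 2 without MCUb knockout replicate 2, and 0 without control replicate 1, MCUb knockout replicate 1 or MCUb knockout replicate 3 (1649, 1395 and 1436 at an unadjusted p under 0.05). Between the knockouts they numbered 35, 61 with array weights, and 13 to 43 with 1 array left out (13 without MCU knockout replicate 3, 19 and 23 without MCUb knockout replicates 3 and 2). On the 6 arrays with a low Y-linked level, a setting added after the data were seen, 0, 0 and 3 passed in limma (1090, 1117 and 912 at an unadjusted p under 0.05). With the replicate number as a block 24, 5 and 28 passed, and the block changed no call of a member. Each member has 1 probe set, so a mean over probe sets could not be run.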

Other observations

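Mybph, a myosin-binding protein of the thick filament, and Lmod2, which builds thin filaments, were chosen after their values were seen. Mybph stood at 12.99, 10.05 and 9.90 on the MCU knockout arrays and at 9.11, 12.94 and 13.09 on the MCUb knockout arrays, against 13.87, 13.90 and 13.41 on the control arrays. Its 3 lowest arrays were those with high Uty and Kdm5d, as for Csrp3 and Ankrd2. The log2 change was -2.74 (adjusted p = 0.412 in limma) in MCU knockout and -2.01 (adjusted p = 0.622) in MCUb knockout muscle. Lmod2 stood at 12.86, 11.40 and 11.52 on the MCU knockout arrays and at 11.48, 13.31 and 13.35 on the MCUb knockout arrays, against 13.10, 12.78 and 13.57 on the control arrays, again with the same 3 arrays lowest. Of the 35 partners of titin and the Z-disc, 5 were lower on those arrays without overlap and 1 was higher. Of the 24 load and injury genes 3 were lower and 0 higher. Among the 22 SRF, MRTF and MEF2 genes 2 were lower and 1 higher, and among the 14 chaperones likewise 2 and 1. The 26 YAP, TAZ and TEAD genes had 0 lower and 0 higher, and the 6 genes of the member families 0 and 1. Of all probe sets 1.85% were lower in that way. The share higher is not given here, so the counts higher cannot be judged against it.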
